A study of Gallus gallus with 9 samples.

Results

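Fatty acid and triglyceride synthesis was followed through a list of 31 genes. They were chosen by gene symbol for their known roles, with earlier results of these data at hand. Their probe sets were looked up in the platform annotation of a 1-colour Affymetrix chicken array. A probe set is a group of probes read together as 1 value, and it stood for a gene only where that gene's symbol was the sole one annotated to it. A gene with several probe sets was read from the brightest, by its mean over the 9 arrays. A probe set was found for 29 of the 31 genes, and none was annotated with the symbol MLXIPL (the carbohydrate-responsive regulator of lipid synthesis) or DGAT1 (an enzyme of the last step of triglyceride synthesis). Of these 29 genes, 19 had log2 values of 5 or more on 3 arrays or more and were compared, among 6945 named genes that did so and 13008 named genes with a probe set.

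The cells were chicken preadipocytes, the precursors of fat cells, isolated from the abdominal adipose tissue of laying hens and grown to confluence in serum-containing medium. One group had no treatment (control), and another received DMIOA, the labels' name for a cocktail meant to drive cells towards fat. The last received DMIOA with 10 uM retinoic acid, a form of vitamin A that binds nuclear receptors. Each group had 3 arrays, numbered as biological replicates 1 to 3. The labels do not say what DMIOA stands for, from which hen or culture each replicate was taken, or how long treatment lasted, so p-values measure only the spread of these samples. A "(2)" closes the titles of control and DMIOA samples but no retinoic acid title, and whatever it marks cannot be told apart from retinoic acid.

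All levels are log2 values made by the authors with GCRMA, and their precision is limited by the number of arrays. The array medians lay between 2.49 and 2.54, and each array had 30.9% to 31.3% of its 37693 chicken probe sets at 5 or more. Replicate 3 of every group stood apart. Arrays of 1 group correlated at r = 0.963 to 0.997 between replicates 1 and 2 (0.997 with retinoic acid) and at 0.912 to 0.931 between replicate 3 and the others. Of 19 leukocyte markers on the array, 16, 15 and 13 reached 5 in replicate 3 of control, DMIOA and retinoic acid, and 1 to 3 did in the other arrays. Their summed level, on the log2 scale, was 13.67, 12.86 and 12.19 in replicate 3 and 7.31 to 7.74 elsewhere, with the macrophage marker C1QB between 1.78 and 2.07 outside replicate 3. Of 14 mesenchymal markers, 12 or 13 reached 5 on each array, while 6 of 13 fat-cell markers (SCD and DGAT2 among them) stayed below 5 on all arrays.

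Fatty acids are built in the cytosol from citrate that leaves the mitochondrion. ATP citrate lyase releases acetyl-CoA from it, acetyl-CoA carboxylase turns this into malonyl-CoA, and fatty acid synthase condenses the units into palmitate with NADPH, part of which malic enzyme supplies. Elongases and desaturases then lengthen the chains and add double bonds, acyl-CoA synthetases activate fatty acids, and a series of acyltransferases and a phosphatase joins them to glycerol 3-phosphate to give triglyceride. In birds the liver makes most of the fatty acids, and adipose tissue stores fat that is largely delivered by the blood.

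Below 5 on all 9 arrays were 9 genes, none of them an enzyme of de novo synthesis: SCD, the desaturase that makes monounsaturated fatty acids, the elongase genes ELOVL2 and ELOVL4, THRSP, a lipogenic cofactor related to MID1IP1, GPAM, which acylates glycerol 3-phosphate at the mitochondrion, GPD1, which makes glycerol 3-phosphate, LPIN1, a phosphatidic acid phosphatase gene, DGAT2, of the last step of triglyceride synthesis, and the acyl-CoA synthetase gene ACSL5. Their highest values ran from 1.57 (ELOVL2) to 4.78 (LPIN1). These values are too dim to be set against each other, and a dim probe set may also be a poor reporter of its gene.

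Around the threshold, ACSS2, which activates acetate in the cytosol, reached 5 on 2 arrays and was left out. It had 4.53, 4.39 and 4.68 in control, 4.69, 5.09 and 5.99 with DMIOA and 4.42, 4.61 and 4.91 with retinoic acid in replicates 1, 2 and 3. LPIN1, the nearest below 5 throughout, had 4.53, 4.17 and 2.99 in control, 4.47, 4.78 and 2.38 with DMIOA and 2.61, 2.58 and 3.07 with retinoic acid. Just inside the filter, the elongase gene ELOVL7 reached 5 on 4 arrays, 2 of control and 1 of each treated group. The other 18 genes compared were at or above 5 on all 9 arrays.

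**Figure D1:**
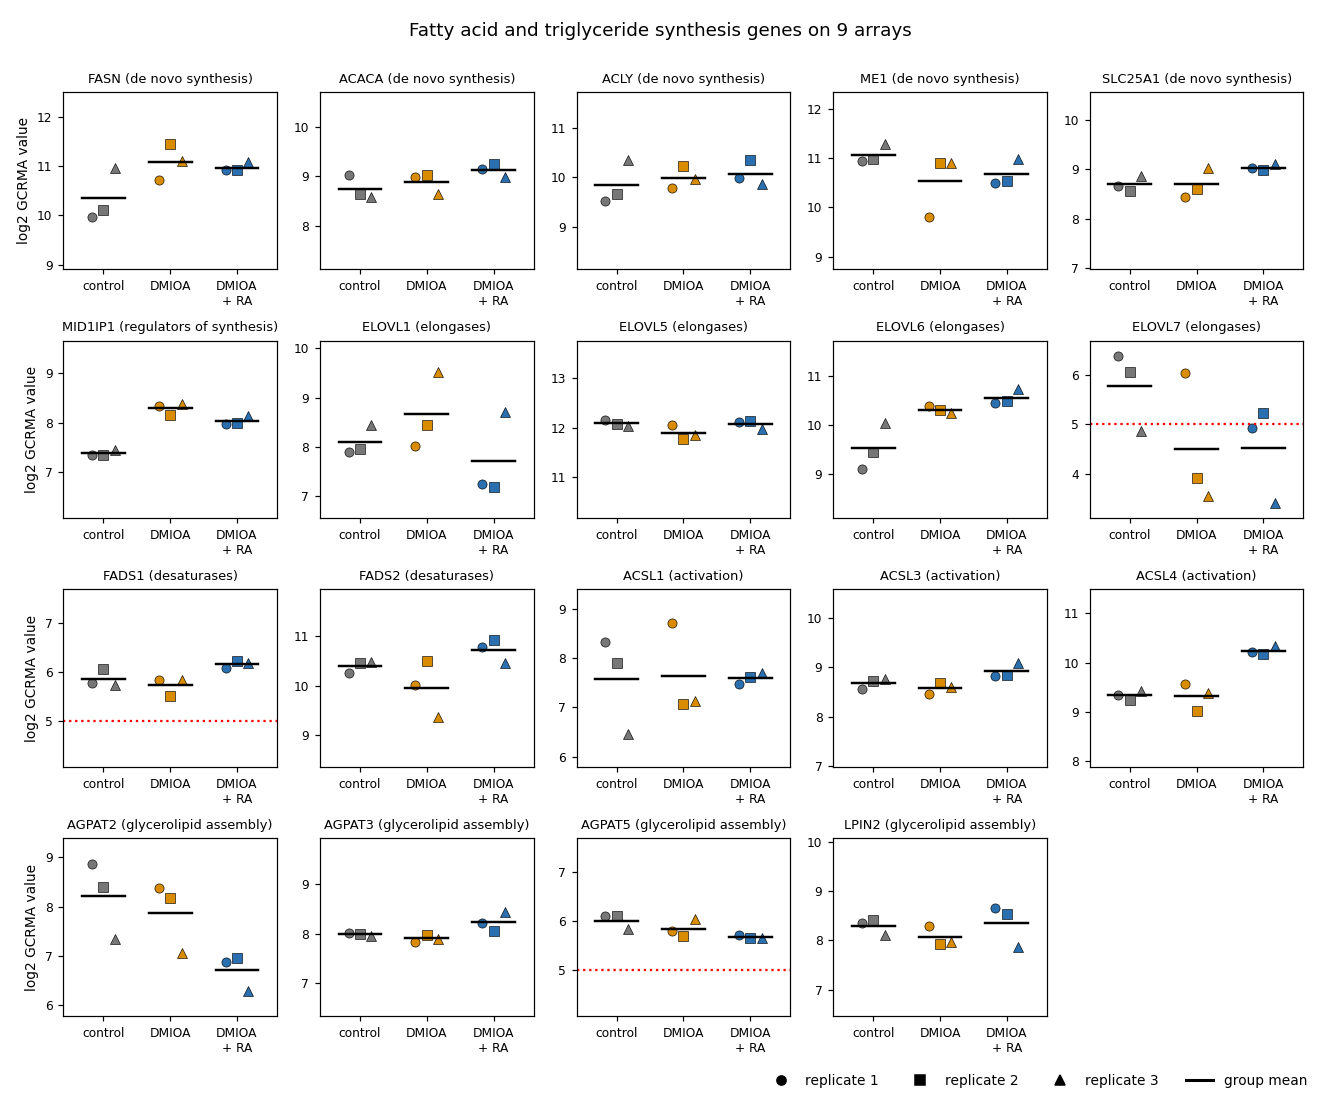
Log2 GCRMA values (vertical axis, spanning 3.6 log2 units in every panel) of the 19 genes compared, in control, DMIOA and DMIOA plus retinoic acid (RA), with a symbol per replicate number and a bar at the group mean; a dotted line marks a value of 5 where it falls in the panel. MID1IP1 is higher in all arrays with DMIOA or DMIOA plus RA than in control, ACSL4 is higher in the 3 retinoic acid arrays than in the other 6, and ELOVL1 and AGPAT2 part by replicate number within each group.

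The effect of the cocktail alone was read from DMIOA over control. MID1IP1, whose protein promotes the assembly of acetyl-CoA carboxylase into its active polymer, rose, and no other gene of the list was called. It had 7.35, 7.34 and 7.44 in control replicates 1, 2 and 3, 8.33, 8.15 and 8.38 with DMIOA, and 7.97, 8.0 and 8.14 with retinoic acid. The 3 groups did not overlap, though DMIOA replicate 2 (8.15) and retinoic acid replicate 3 (8.14) nearly met. The gap between control and DMIOA was wider than the spread within either. The rise was 1.88-fold, a log2 difference of 0.91 ± 0.11 (SE, n = 3 arrays per group; limma, Benjamini-Hochberg adjusted p = 0.0399). The call was lost without any 1 of the 9 arrays (adjusted p from 0.0564 to 0.217), and with the block without any 1 of 7 of them (blocked adjusted p up to 0.181).

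Over all 12329 probe sets compared, 0.146% were called in this comparison by limma, with an adjusted p under 0.05: 0.0487% were higher and 0.0973% were lower. Once the replicate number was added as a block 1.29% were called (0.495% and 0.795%), and the list had 1 of 19 (5.26%), higher, in either fit. An unadjusted p under 0.05 was found for 3 of the 19 genes and for 11.6% of all probe sets. The values of both groups did not overlap for 3 of the 19 genes (MID1IP1, ELOVL6 and ME1), or 15.8%, beside 15.5% of all probe sets. The median log2 difference of the 19 genes was -0.09, with 7 above and 12 below 0, and that of the 6945 named genes was 0.03. With each array centred on its median the split was 8 above and 11 below.

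Among the enzymes of de novo synthesis, FASN, the fatty acid synthase gene, had 10.35 ± 0.54 (SD, n = 3) in control and 11.09 ± 0.37 with DMIOA, a log2 difference of 0.74 (95% interval 0.09 to 1.40, limma adjusted p = 0.367). The differences within replicates 1, 2 and 3 were 0.75, 1.33 and 0.15, and control replicate 3, at 10.96, lay above DMIOA replicate 1, at 10.71, so the groups overlapped. Another FASN probe set had 9.92 in control and 10.89 with DMIOA, without overlap (log2 difference 0.97, adjusted p = 0.193). The acetyl-CoA carboxylase gene ACACA, the citrate lyase gene ACLY and the citrate carrier gene SLC25A1 had intervals that span 0 (-0.25 to 0.52, -0.42 to 0.70 and -0.39 to 0.38). The malic enzyme gene ME1 had 11.07 ± 0.19 in control and 10.53 ± 0.64 with DMIOA (log2 difference -0.54, adjusted p = 0.560). Its low group mean came from DMIOA replicate 1, at 9.80 beside 10.90 in replicates 2 and 3.

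ELOVL6, the elongase that lengthens palmitate to stearate, had 9.10, 9.46 and 10.05 in control replicates 1, 2 and 3, 10.38, 10.30 and 10.24 with DMIOA, and 10.45, 10.49 and 10.72 with retinoic acid. Control replicate 3 lay nearest to the treated arrays, and the groups did not overlap. DMIOA minus control was 0.77 ± 0.23 (SE; limma adjusted p = 0.261, blocked 0.114). Its other probe sets above the filter differed by 0.85 and 1.67 (adjusted p = 0.214 and 0.136), and within replicates 1, 2 and 3 the last of these, the dimmest, differed by 2.02, 2.38 and 0.60.

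ELOVL7, an elongase of long saturated chains, had 6.39, 6.06 and 4.87 in control, 6.04, 3.92 and 3.56 with DMIOA, and 4.93, 5.24 and 3.41 with retinoic acid. Replicate 3 was the lowest array in each group, and the groups overlapped. With 5 in place of each value below 5 in the dimmer group, the mean of ELOVL7 was 1.34-fold lower with DMIOA than in control. Control replicate 3 also lay below 5, so this is no measured size. The 95% interval of the log2 difference spans 0 (-3.03 to 0.49, limma adjusted p = 0.584). ELOVL5, an elongase of polyunsaturated chains, differed by -0.19 (95% interval -0.46 to 0.08), and ELOVL1, which acts on very long saturated chains, by 0.56 (-0.58 to 1.71), and neither passed the test.

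The desaturase genes FADS1 and FADS2, both of polyunsaturated fatty acid synthesis, differed by -0.13 and -0.43 (limma adjusted p = 0.818 and 0.601). The 3 measured acyl-CoA synthetase genes ACSL1, ACSL3 and ACSL4 differed by 0.08, -0.09 and -0.01, and the interval of ACSL1, -1.22 to 1.37, was the widest of these. Of the glycerolipid genes, AGPAT2, AGPAT3, AGPAT5 and LPIN2 differed by -0.33, -0.09, -0.17 and -0.23 (adjusted p from 0.717 to 0.876).

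**Figure D2:**
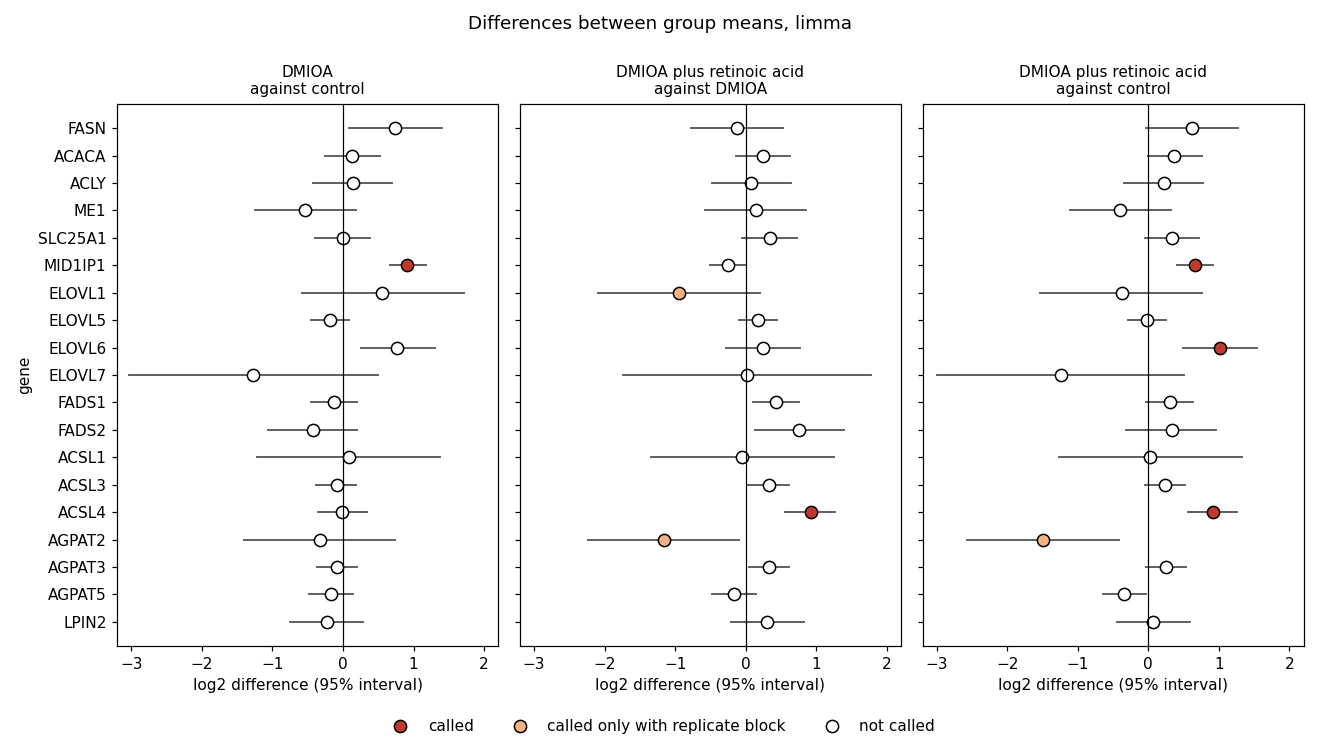
Log2 difference between group means (horizontal axis) with its 95% interval from limma for the 19 genes in the 3 comparisons; red points were called at an adjusted p under 0.05, orange points were called only when the replicate number was a block (the interval shown is that without the block), and white points were not called; ELOVL7 was below 5 on 5 of the 9 arrays, so its points are no measured size. MID1IP1 is called in the comparison of DMIOA with control (0.91), ACSL4 with retinoic acid against DMIOA (0.92), and ELOVL6, MID1IP1 and ACSL4 with retinoic acid against control (1.02, 0.66 and 0.91).

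The effect of retinoic acid in the presence of the cocktail was read against DMIOA alone. ACSL4, an acyl-CoA synthetase that prefers arachidonate and other polyunsaturated fatty acids, rose, and with the replicate block AGPAT2 and ELOVL1 were called lower. ACSL4 had 9.35, 9.24 and 9.42 in control replicates 1, 2 and 3, 9.56, 9.03 and 9.39 with DMIOA, and 10.21, 10.17 and 10.34 with retinoic acid. The retinoic acid arrays lay above all the others and close together, while control and DMIOA overlapped. The rise over DMIOA was 1.89-fold, a log2 difference of 0.92 ± 0.15 (SE; limma adjusted p = 0.0168). Without retinoic acid replicate 1 or 2 the call was lost (adjusted p = 0.0805 and 0.0754).

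The probe sets of ACSL4 disagreed in size. The next brightest rose by 1.07 (limma adjusted p = 0.0116), and the others differed by 0.48 and 0.57 (adjusted p = 0.295 and 0.701). With the mean over all 4 in place of the brightest, the difference was 0.76 (adjusted p = 0.0928).

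**Figure D3:**
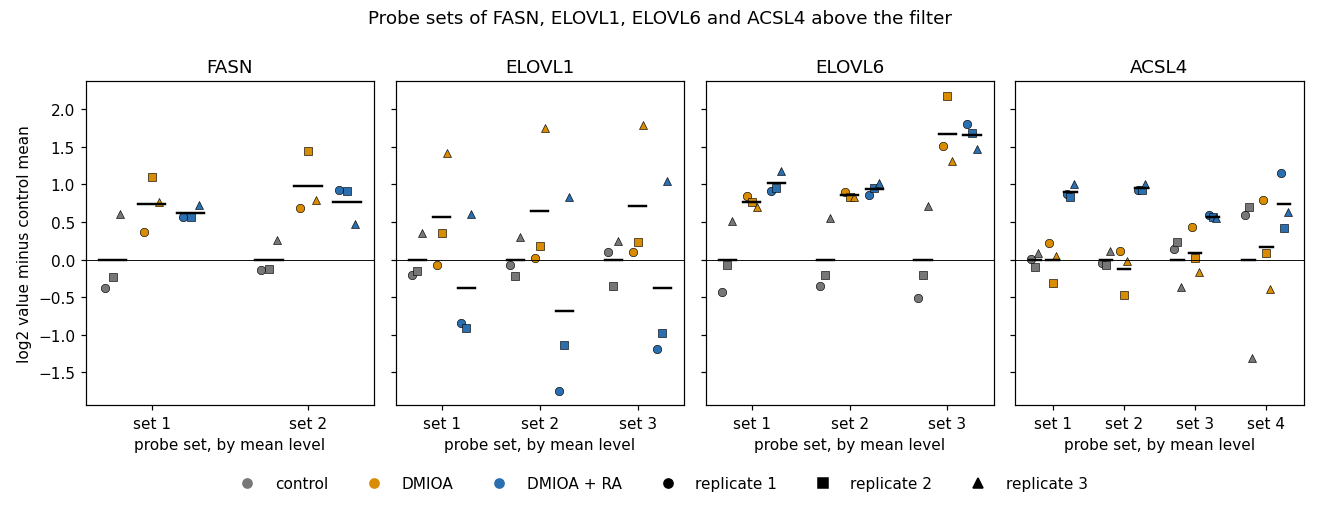
Log2 value minus the probe set's own control mean (vertical axis) on each array, for every probe set above the filter of FASN, ELOVL1, ELOVL6 and ACSL4, ordered from the brightest, with colours for the groups, symbols for the replicate numbers and a bar at the group mean. The difference of DMIOA from control in ELOVL6 runs from 0.77 to 1.67 between its probe sets, and that of retinoic acid from DMIOA in ACSL4 from 0.48 to 1.07.

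AGPAT2 acylates lysophosphatidic acid to phosphatidic acid, and people who lack it have congenital lipodystrophy. It had 8.87, 8.40 and 7.35 in control replicates 1, 2 and 3, 8.37, 8.17 and 7.06 with DMIOA, and 6.87, 6.96 and 6.30 with retinoic acid. The retinoic acid arrays were the lowest, without overlap, and replicate 3 was the lowest in each group. Retinoic acid minus DMIOA was -1.16 ± 0.46 (SE; limma adjusted p = 0.264), or -1.16 with an adjusted p of 0.0147 with the block. Within replicates 1, 2 and 3 the difference was -1.51, -1.21 and -0.76. With replicates 1 and 2 alone it was -1.36 (adjusted p = 0.0152). That fit leaves out replicate 3, which stood apart, and called 1517 of all probe sets, beside 479 with all arrays. It uses some of the same arrays and is no separate test. Leaving out DMIOA replicate 1 or 3, or retinoic acid replicate 1 or 2, ended the blocked call (adjusted p up to 0.0739).

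ELOVL1 had 7.89, 7.95 and 8.45 in control replicates 1, 2 and 3, 8.02, 8.45 and 9.52 with DMIOA, and 7.25, 7.19 and 8.70 with retinoic acid. Replicate 3 was the highest array in every group, and the groups overlapped. Retinoic acid minus DMIOA was -0.95 ± 0.50 (SE; limma adjusted p = 0.410, blocked 0.0450), and within replicates 1, 2 and 3 it was -0.76, -1.26 and -0.82. With replicates 1 and 2 alone it was -1.01 (adjusted p = 0.0232), in the same fit with more calls over all probe sets, which is no separate test. The blocked call was lost without any 1 array except control replicate 3 or retinoic acid replicate 3 (adjusted p up to 0.180). Its other probe sets differed by -1.33 and -1.09 (blocked adjusted p = 0.0770 and 0.115). In bulk RNA, fewer cells of a type and less of a transcript per cell cannot be told apart.

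Some markers of other cell types were also called lower with retinoic acid, and some of these with DMIOA alone. Calls on the mesenchymal list went both ways. Of its 13 measured markers limma called 2 against DMIOA, TCF21 higher and POSTN lower (adjusted p = 7.91e-05 for each). TCF21 was the only marker of this list called higher in any comparison. It lay below 5 on all control and DMIOA arrays (means 3.90 and 4.10) and passed the filter only through retinoic acid (11.39), so no size is given. The block added PDGFRB, lower (blocked adjusted p = 0.0189). POSTN was also called lower with DMIOA than in control (limma adjusted p = 0.0129). With retinoic acid over control limma called 1 higher and 2 lower, beside 13.2% of all probe sets called. With the block it called 1 higher and 4 lower, beside 28.8%. Of 13 measured leukocyte markers limma called 0 in each comparison, and the block called only PTPRC, lower over control (adjusted p = 0.291, blocked 0.0110). Most of the 13 were below 5 outside replicate 3, so their spread within groups was wide. C1QB had an SD of 5.23, 4.68 and 3.23 in control, DMIOA and retinoic acid. These counts therefore cannot tell whether the leukocyte markers differed between groups. Of 9 endothelial markers 6, KDR among them, were below 5 on all arrays, and the log2 of the list's summed level ran from 10.56 to 11.71 in control, 10.32 to 11.53 with DMIOA and 9.55 to 11.06 with retinoic acid. PECAM1, an endothelial adhesion molecule, had means of 7.11, 5.53 and 4.34 in these groups. It lay below 5 in DMIOA replicate 2 (4.99) and retinoic acid replicates 1 and 2 (3.89 and 3.83), so its differences are no measured size. ERG, an endothelial transcription factor, had 10.26, 10.09 and 8.61. With retinoic acid, PECAM1 and ERG were called lower than DMIOA with the block (limma, blocked adjusted p = 0.0325 and 0.0260). Both were called lower than control without it (adjusted p = 0.00705 and 0.0173), while CDH5, the third measured marker, was not called. With DMIOA over control PECAM1 was called lower with the block only (log2 difference -1.58, adjusted p = 0.228, blocked 0.0477), and ERG was not called.

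Of 9 skeletal muscle markers 6 were below 5 on all arrays, and the log2 of the summed level ran from 11.85 to 12.69, 10.83 to 12.27 and 10.81 to 11.14 in the same order. The myosin gene MYH1E had means of 8.04, 5.71 and 3.91. It was called lower than DMIOA with the block (limma, blocked adjusted p = 0.0101) and lower than control without it (adjusted p = 0.00413). With DMIOA over control MYH1E was called lower with the block only (adjusted p = 0.192, blocked 0.0330). All its retinoic acid arrays lay below 5 (3.42, 4.24 and 4.08 in replicates 1, 2 and 3), so no size is given. The other measured markers followed it less or not at all. ACTA1 had 12.05, 11.67 and 10.87 and was called lower than control with the block only (blocked adjusted p = 0.0468). TNNT3 had 5.97, 6.53 and 5.95 and was not called. Of 7 measured fat-cell markers 0 were called by limma against DMIOA, with 2 at an unadjusted p under 0.05. The means of all 7 were lower with retinoic acid than with DMIOA (median log2 difference -0.93), CD36 and LPL among them with arrays below 5. The block called LPL lower (blocked adjusted p = 0.0447). With retinoic acid over control limma called 1, CIDEC, higher (adjusted p = 0.0437), with no size given because its control mean, 3.81, lay below 5. The block added PPARG and LPL, both lower (blocked adjusted p = 0.0468 and 0.00181). With DMIOA over control 0 of the 7 were called in either fit, 5 lay above and 2 below 0, and 2 had an unadjusted p under 0.05. CIDEC was higher in that step but not called (limma adjusted p = 0.135, blocked 0.0732). Its means were 3.81, 7.72 and 6.79 in control, DMIOA and retinoic acid, so it was lower with retinoic acid than with DMIOA alone. The part of these cell types in the lower AGPAT2 and ELOVL1 values was not tested.

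Over all probe sets 3.89% were called in this comparison (2.12% higher and 1.77% lower), or 10.8% with the block (5.56% and 5.27%). The list had 1 of 19 (5.26%), or 3 of 19 (15.8%) with the block, 1 higher and 2 lower. Values of the groups did not overlap for 7 of the 19 genes, beside 22.0% of all probe sets. The median difference was 0.17, with 13 above and 6 below 0 (12 and 7 after cyclic loess), and that of the named genes was 0.06. An unadjusted p under 0.05 was found for 6 of the 19 genes and for 16.2% of all probe sets.

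The desaturase genes were both above DMIOA. FADS2 had 9.96 ± 0.57 with DMIOA and 10.73 ± 0.24 with retinoic acid (log2 difference 0.76, 95% interval 0.13 to 1.40, limma adjusted p = 0.207, blocked 0.0770). FADS1 had 5.74 ± 0.19 and 6.16 ± 0.08, without overlap (0.43, adjusted p = 0.168, blocked 0.123). FADS2 differed by 0.77, 0.43 and 1.09 within replicates 1, 2 and 3, and its lowest array was DMIOA replicate 3, at 9.37.

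ACSL3, a synthetase found on lipid droplets and the endoplasmic reticulum, had 8.59 ± 0.11 with DMIOA and 8.92 ± 0.15 with retinoic acid (log2 difference 0.33, limma adjusted p = 0.228). AGPAT3, a relative of AGPAT2, had 7.91 ± 0.07 and 8.24 ± 0.18 (0.33, adjusted p = 0.220). Neither pair of groups overlapped, and neither difference passed the test. ACSL1, the synthetase most tied to triglyceride synthesis and oxidation in fat cells, had 7.64 ± 0.93 and 7.59 ± 0.11, with differences of -1.24, 0.55 and 0.55 in replicates 1, 2 and 3.

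None of the 5 enzymes and carriers of de novo synthesis passed the test, and the interval of each spans 0. FASN differed by -0.12 (95% interval -0.78 to 0.53), ACLY by 0.08 (-0.48 to 0.64), ACACA by 0.24 (-0.14 to 0.63), ME1 by 0.14 (-0.57 to 0.85) and SLC25A1 by 0.34 (-0.05 to 0.73). MID1IP1 was lower than with DMIOA alone in all 3 replicate numbers, by -0.25 ± 0.11 (SE; limma adjusted p = 0.317). ELOVL6 and ELOVL5 differed by 0.25 and 0.17 (adjusted p = 0.683 and 0.549), and no difference is given for ELOVL7, which was below 5 on 4 of these 6 arrays. AGPAT5 differed by -0.17 and LPIN2, a phosphatidic acid phosphatase gene, by 0.30 (adjusted p = 0.613 and 0.587).

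Retinoic acid over control takes the cocktail and retinoic acid together. ELOVL6, ACSL4 and MID1IP1 rose, and AGPAT2 was called lower with the replicate block. ELOVL6 rose 2.02-fold, a log2 difference of 1.02 ± 0.23 (SE; limma adjusted p = 0.0254), ACSL4 1.87-fold (0.91 ± 0.15, adjusted p = 0.00910) and MID1IP1 1.58-fold (0.66 ± 0.11, adjusted p = 0.00933). Within replicates 1, 2 and 3 ELOVL6 differed by 1.35, 1.03 and 0.67. The calls of ACSL4 and MID1IP1 held without any 1 array (adjusted p up to 0.0472 and 0.0498). That of ELOVL6 was lost without control replicate 1 or 2 or any single retinoic acid array (adjusted p up to 0.0948).

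AGPAT2 differed from control by -1.49 ± 0.46 (SE; limma adjusted p = 0.0714, blocked 0.00359), 2.82-fold lower, with -2.0, -1.44 and -1.04 in replicates 1, 2 and 3. The blocked call held without any 1 array (adjusted p up to 0.0225). All 3 probe sets of ELOVL6 above the filter were called higher, by 1.02, 0.94 and 1.65 (adjusted p = 0.0254, 0.0311 and 0.0197). Of the 4 of ACSL4, the brightest pair rose by 0.91 and 0.95, and the others differed by 0.57 and 0.73 (adjusted p = 0.103 and 0.419, blocked 0.0384 and 0.189). A dimmer probe set of SLC25A1, the citrate carrier gene, was called higher with the block (0.49, adjusted p = 0.291, blocked 0.0189), which its brightest was not. Probe sets of 1 gene share their RNA and are not replicates.

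The share called over all probe sets was 13.2% (6.74% higher and 6.42% lower), or 28.8% with the block (15.8% and 13.0%), and the list had 3 of 19 (15.8%), or 4 of 19 (21.1%) with it, which is near that background. Of all calls without the block, 51.2% were higher with retinoic acid, or 39.6% after cyclic loess. Values of the groups did not overlap for 9 of the 19 genes (47.4%), beside 38.6% of all probe sets, and 5 of 19 had an unadjusted p under 0.05, beside 30.4%. The median difference was 0.24, with 13 above and 6 below 0 (11 and 8 after cyclic loess), and that of the named genes was 0.09. With replicates 1 and 2 alone 6 of the 19 genes were called, beside 3620 of all 12329 probe sets, which is near that background. The added genes were ELOVL1 (-0.70, limma adjusted p = 0.0342), AGPAT2 (-1.72, adjusted p = 0.00429) and AGPAT5, an acyltransferase gene (-0.41, adjusted p = 0.0343).

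The other genes did not pass this test. FASN differed by 0.62 (95% interval -0.04 to 1.27, limma adjusted p = 0.186) and was called without control replicate 3 (adjusted p = 0.0311). Its other probe set differed by 0.77 (0.22 to 1.32), without overlap (adjusted p = 0.0705, blocked 0.0514). That probe set was called without DMIOA replicate 2 (adjusted p = 0.0353). ACACA differed by 0.37 (-0.01 to 0.76), ACLY by 0.22 (-0.34 to 0.78), SLC25A1 by 0.33 (-0.05 to 0.72) and ME1 by -0.40 (-1.11 to 0.32). The mean of ELOVL7, with 5 in place of each value below 5 in the retinoic acid group, was 1.62-fold lower. Its control replicate 3 also lay below 5, so this is no measured size. The interval of its log2 difference spans 0 (-3.00 to 0.51, adjusted p = 0.314). ELOVL1, with all arrays, differed by -0.38 (-1.53 to 0.76), with -0.63, -0.77 and 0.25 in replicates 1, 2 and 3. FADS1, FADS2, ACSL3, AGPAT3, LPIN2 and AGPAT5 differed by 0.30, 0.33, 0.24, 0.25, 0.07 and -0.34 (adjusted p from 0.137 to 0.873), and ELOVL5 and ACSL1 by -0.02 and 0.03 (adjusted p = 0.945 and 0.981).

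The 3 comparisons share their arrays, so the differences of a gene add up and are not independent. In the order of DMIOA over control, retinoic acid over DMIOA and retinoic acid over control, MID1IP1 had 0.91, -0.25 and 0.66, and ELOVL6 0.77, 0.25 and 1.02. ACSL4 had -0.01, 0.92 and 0.91, and AGPAT2 -0.33, -1.16 and -1.49. FADS2 had -0.43, 0.76 and 0.33. By size, the larger step was that with DMIOA for MID1IP1 and ELOVL6, and that with retinoic acid for ACSL4 and AGPAT2. The steps of MID1IP1 had opposite signs, but its retinoic acid step was not called in either fit (limma adjusted p = 0.317, blocked 0.141). Neither step of FADS2 was called in either fit. The DMIOA step of ELOVL6 was not called, and the retinoic acid step of AGPAT2 was called only with the block. Whether a gene's steps differ was not tested.

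Several genes moved with replicate 3, whose arrays had high leukocyte markers and also differed in some markers of other lists. CDH5 had 10.92, 10.93 and 10.82 in replicate 3 of control, DMIOA and retinoic acid, and 7.82 to 8.98 elsewhere. PPARG had 7.11, 8.05 and 6.91 there, the lowest array of each group. ERG in replicate 3 lay between the other arrays of its group in control and DMIOA. Replicate 3 minus the mean of replicates 1 and 2 was 0.53, 1.29 and 1.48 for ELOVL1 in control, DMIOA and retinoic acid. It was -1.35, -1.42 and -1.67 for ELOVL7, whose replicate 3 values all lie below 5, and -1.29, -1.21 and -0.61 for AGPAT2. These were the 3 genes of 19 with a shift over 0.5 in 1 direction in every group. ACSL1 had -1.65, -0.76 and 0.14, and FASN, ACLY and ELOVL6 had 0.92, 0.75 and 0.77 in control and between -0.30 and 0.25 in the treated groups. MID1IP1 and ACSL4 had shifts between 0.09 and 0.15. The part of other cell types in these shifts was not tested.

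**Figure D4:**
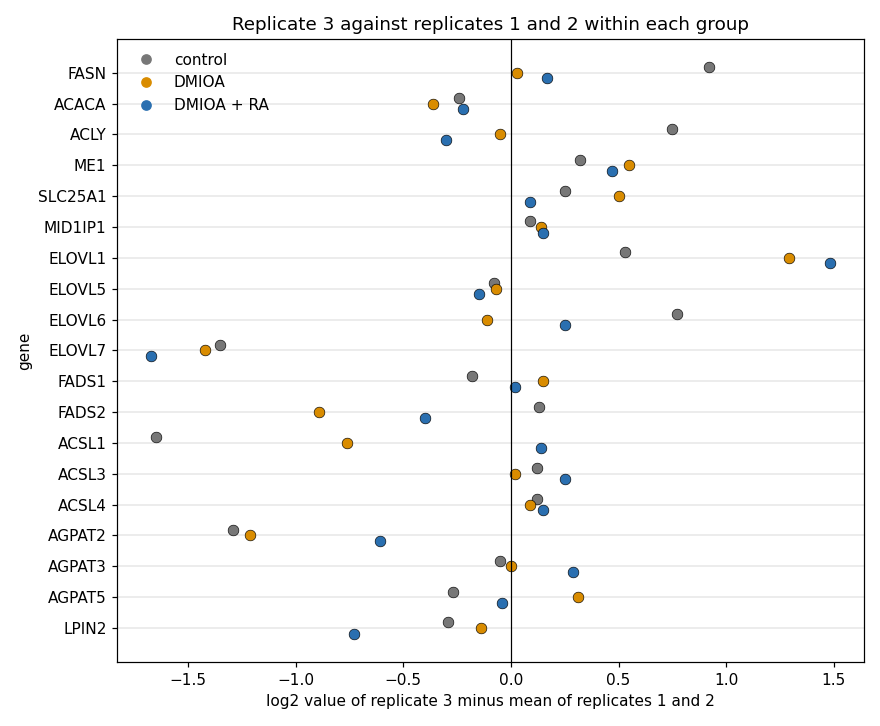
Log2 value of replicate 3 minus the mean of replicates 1 and 2 (horizontal axis) for the 19 genes in control, DMIOA and DMIOA plus retinoic acid (RA), with a point per group. ELOVL1 lies to the right in all groups (0.53 to 1.48), ELOVL7 and AGPAT2 to the left (-1.67 to -0.61), and MID1IP1 and ACSL4 near 0 (0.09 to 0.15).

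Other genes of the pathway were read from 5 further lists, whose counts stand beside the shares of all probe sets called: 0.146%, 3.89% and 13.2% in the order above, or 1.29%, 10.8% and 28.8% with the block. These lists, too, were chosen with earlier results of these data at hand. Of 8 measured regulators, INSIG2, which retains the sterol-regulated transcription factors of lipid synthesis in the endoplasmic reticulum, rose with retinoic acid over DMIOA, from 10.68 ± 0.13 to 11.60 ± 0.04 (log2 difference 0.92, limma adjusted p = 0.00501). It also rose over control (0.93, adjusted p = 0.00261), as did CEBPB, an early transcription factor of fat-cell differentiation (0.81, adjusted p = 0.0217). PPARG, the receptor that drives that differentiation, had 9.26 ± 1.86 in control and 7.76 ± 0.73 with retinoic acid and was called lower with the block only (log2 difference -1.50, adjusted p = 0.298, blocked 0.0468). With DMIOA over control limma called 0 of the 8, and 0 had an unadjusted p under 0.05.

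Of 12 genes of carbon and NADPH supply, ME3, the mitochondrial malic enzyme that yields NADPH, rose with retinoic acid over DMIOA (1.19, limma adjusted p = 0.00686) and over control (1.01, adjusted p = 0.00643). It had 8.0 ± 0.13 in control, 7.82 ± 0.27 with DMIOA and 9.0 ± 0.04 with retinoic acid, where ME1, its cytosolic relative, was not called. The block added MDH1, a malate dehydrogenase gene, in both of these comparisons (0.54 and 0.42, blocked adjusted p = 0.0317 and 0.0351), and ACO1 and DLD over control. With DMIOA over control 0 were called by limma, and 1 had an unadjusted p under 0.05.

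Of 9 partners of elongation and desaturation none was called without the block by limma (0, 1 and 3 had an unadjusted p under 0.05 in the 3 comparisons). With it, retinoic acid over control had the electron carrier gene CYB5A and the elongation dehydratase gene HACD2 higher (1.11 and 0.60, blocked adjusted p = 0.0112 and 0.0318) and CYB5B lower (-0.30, 0.0482). Of 13 other glycerolipid genes, PLPP3, a lipid phosphate phosphatase, rose over control with retinoic acid (from 7.21 ± 0.57 to 9.40 ± 0.05, log2 difference 2.19, adjusted p = 0.0133), and in the other comparisons 0 were called by limma, with 1 (DMIOA over control) and 2 (retinoic acid over DMIOA) at an unadjusted p under 0.05. The acyl-CoA synthetase gene ACSBG2 was higher with the block over DMIOA and over control (1.70 and 1.21, blocked adjusted p = 0.0141 and 0.0202), and ACSS3 was called lower over control with the block (blocked adjusted p = 0.00778), with no size given because its retinoic acid mean, 4.42, lay below 5.

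Of 16 genes of the phospholipid branch, which draws on the same phosphatidic acid and diacylglycerol as triglyceride synthesis, 3 rose and 1 fell with retinoic acid over control (25.0% called, beside 13.2% of all probe sets), or 6 and 1 with the block (beside 28.8%). LPCAT3, which inserts polyunsaturated chains into phospholipids, rose from 10.31 ± 0.05 to 11.38 ± 0.09 (log2 difference 1.08, limma adjusted p = 0.00331). The ethanolamine phosphotransferase gene SELENOI rose by 1.31 (adjusted p = 0.00777) and the choline and ethanolamine phosphotransferase gene CEPT1 by 0.40 (adjusted p = 0.0475), and the choline phosphotransferase gene CHPT1 fell by 0.74 (adjusted p = 0.0209). The list's median was 0.17, beside 0.09 for all named genes. None was called by limma with DMIOA over control or with retinoic acid over DMIOA, and 4 had an unadjusted p under 0.05 in each.

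The genes whose pattern over the 9 arrays was most like the mean of ELOVL6, MID1IP1 and ACSL4, each centred, were sought among 6926 other named genes. They were the splicing regulator gene SREK1 (Pearson r = 0.980), the mitochondrial ribosomal gene MRPS35 (0.977), the mitochondrial carrier gene SLC25A32 (0.964), ORAOV1 (0.964) and the Mediator subunit gene MED4 (0.961). MRPS35 had 8.0, 7.98 and 8.19 in control replicates 1, 2 and 3, 8.62, 8.58 and 8.65 with DMIOA and 8.94, 8.89 and 8.95 with retinoic acid, so its groups stood in steps without overlap. These correlations describe 9 arrays that share their groups and their replicate numbers, and were picked as the highest of many.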

How the data were processed

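RNA of 9 samples was measured on 1 array each. The authors deposited 1 log2 value per probe set and array. Per the submitters' processing notes they used GCRMA, of unstated version and settings. This method adjusts for background by probe sequence and normalizes between arrays, which compresses dim probe sets, so probe sets below the filter were not compared. Per the labels' protocols, RNA was extracted with TriZol and labelled with biotin by a 3' in vitro transcription kit. Scanner files were not used here.

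The table held 38535 probe sets, 37693 of chicken, and 27178 had 1 gene symbol in the platform annotation, 177 several and 11180 none. Names of the 29 genes matched the RefSeq gene table by gene ID. Chicken probe sets with at least 5 on at least 3 arrays, 12329, entered 1 model of 3 group means over all 9 arrays with lmFit and eBayes (limma 3.58.1 under R 4.3.3). P-values were adjusted by Benjamini-Hochberg over all of them and called under 0.05. Fits were tested on simulated data with independent noise on each array. Those data held no deviation shared by a replicate number, so the fits were not tested under that structure. Samples of the same replicate number but different groups deviated together from their group means (9 pairs, r = 0.375 to 0.857). This sets replicate 3 apart but not 1 from 2: between groups, r was 0.321 to 0.668 across numbers 1 and 2 and 0.375 to 0.730 within them. For the 19 genes and for all probe sets, a blocked value is given beside a result where it changes a call or moves a count by over 1.5 times. Of the other lists, not every gene called with the block is named.

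The genes and lists were chosen with earlier results of these data known. All 9 values are given for genes called in any comparison, with or without the block, or with group means at least 1 apart; of other lists, at most 4 genes per comparison are named, those called with the smallest adjusted p. The values of ACSS2, LPIN1 and MRPS35 are shown for the threshold and the pattern. Alternatives covered the filter, centring, cyclic loess, a robust prior with intensity trend, weights per array, which groups entered, the block, replicates 1 and 2 alone, a 2-fold threshold, the mean over probe sets and leaving out each array.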

Additional observations from a re-analysis of the deposited data

How the results depend on the processing

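Of the 8 results on single genes called with or without the replicate block, each recomputed 28 times, 164 of 224 values stayed on the side of the threshold they had without the block, 34 lost a call, 26 gained one and 0 changed direction. With DMIOA over control, 1 of the 19 genes was called. That count was 0 after cyclic loess, with an intensity trend and robust prior, with only the 2 groups compared and with a 2-fold threshold (3 of the 19 had an unadjusted p under 0.05 in limma), and 2 with array weights, which added FASN. Over all probe sets the 18 calls became 11 with the trend, 269 with array weights, 0 with only the 2 groups (1429 at an unadjusted p under 0.05 with all arrays), 159 with the replicate block and 172 with replicates 1 and 2. With retinoic acid over DMIOA, the list's count of 1 became 2 with array weights, 3 with the block or with replicates 1 and 2, and 0 with only these groups, a 2-fold threshold or the mean over probe sets (6 of the 19 at an unadjusted p under 0.05). Over all probe sets the 479 calls became 1232, 216, 1336 and 1517 with array weights, only these groups, the block, and replicates 1 and 2. With retinoic acid over control, the list's count of 3 became 14, 6 and 1 with array weights, replicates 1 and 2, and a 2-fold threshold. Over all probe sets the 1623 calls became 8317, 3546, 3620 and 881 with array weights, the block, replicates 1 and 2, and the 2-fold threshold. Leaving out each array gave 0 calls of the list in every case with DMIOA over control, or 0 to 1 with the block. For retinoic acid over DMIOA it gave 0 to 1, or 0 to 4, and over control 2 to 5, or 3 to 7. Over all probe sets these ranges were 0 to 39, or 0 to 398, then 146 to 602, or 371 to 1560, and 546 to 1997, or 1343 to 3898. The replicate block changed no call of the 19 genes other than AGPAT2 and ELOVL1. The causes were not tested. Precision is limited by 3 arrays a group, of which replicate 3 lay far from the others, and the 10 measured genes below the filter gave no comparison.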
